A study of Mus musculus with 4 samples.

Results

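The non-star miRNAs mmu-miR-2861, mmu-miR-3960, mmu-miR-762, mmu-miR-2137, mmu-miR-5122, mmu-miR-5126 and mmu-miR-5128 were followed in mouse small intestine across the 4 arrays of the study. They are 7 of the 1096 mouse miRNA features on the array. They were chosen by their irradiation ratio in Tlr3+/+ intestine, as non-star features that read high after irradiation there, so that ratio describes the choice and is no finding. The array names carry an asterisk on star strands, and none of the 7 has one. Names are given below without the species prefix.

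The study compared Tlr3-/- mice, which lack the double-stranded RNA sensor TLR3, with Tlr3+/+ mice. The groups were irradiated Tlr3-/- intestine and irradiated Tlr3+/+ intestine, both taken 6 hr after 10 Gy of gamma rays to the whole body, and non-treated Tlr3-/- intestine and non-treated Tlr3+/+ intestine at 0 hr. Each group had 1 array, and each array held whole small intestine RNA pooled from 3 mice. The age, sex and background strain of the mice were not given in the sources used here. With 1 array per group there is no replicate, so no test was possible and every difference is a value of these pools. The number of arrays limits the precision.

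MiRNAs are short RNAs that guide the silencing complex to mRNAs, and bases 2 to 8 of the mature strand, the seed, do most of the target pairing. Their names carry numbers given in the order in which sequences were registered, so 6 of the 7, all but miR-762, bear late numbers, taken here as 2000 or above. In mouse osteoblasts, miR-2861 is known to repress histone deacetylase 5 and miR-3960 to repress Hoxa2, and both favour bone formation. For the other miRNAs no role is stated here.

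The mature strands of 6 of the 7 were found by name in RefSeq (GRCm38.p6), and they are shown because their base composition and seeds are what the names do not tell. Capitals mark the seed.
miR-2861: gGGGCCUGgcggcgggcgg
miR-762: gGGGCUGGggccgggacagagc
miR-2137: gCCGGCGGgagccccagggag
miR-5122: cCGCGGGAcccggggcugug
miR-5126: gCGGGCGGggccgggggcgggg
miR-5128: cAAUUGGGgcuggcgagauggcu
For miR-3960 the hairpin precursor is shown in place of the mature strand, in lower case.
miR-3960 hairpin: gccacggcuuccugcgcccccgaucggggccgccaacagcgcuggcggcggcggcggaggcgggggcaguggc

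The 6 mature strands were rich in G and C. The G+C share was 100% in miR-5126, 94.7% in miR-2861, 85.7% in miR-2137, 85% in miR-5122, 81.8% in miR-762 and 60.9% in miR-5128, against a median of 52.2% over the 1679 mature mouse names of the same table. A share of at least 80% was held by 5 of the 6, and by 19 of the 1679 names (1.13%), these 5 included. Some of the 1679 names are not on the array, so these are not shares of array features. G alone made up 43.5% to 77.3% of the 6 strands, against a median of 26.9% over all names. The motif GGGGC, searched on the mature strand only, occurred in 5 of the 6 and in 3.81% of all names, and GGCGG, which can overlap it, in 3 of the 6 and 1.19% of all names. The G+C share of the miR-3960 hairpin was 82.2%. These shares were not used in the choice of the miRNAs, but base composition also sets how probes bind, and its part in the signals was not tested.

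**Figure D1:**
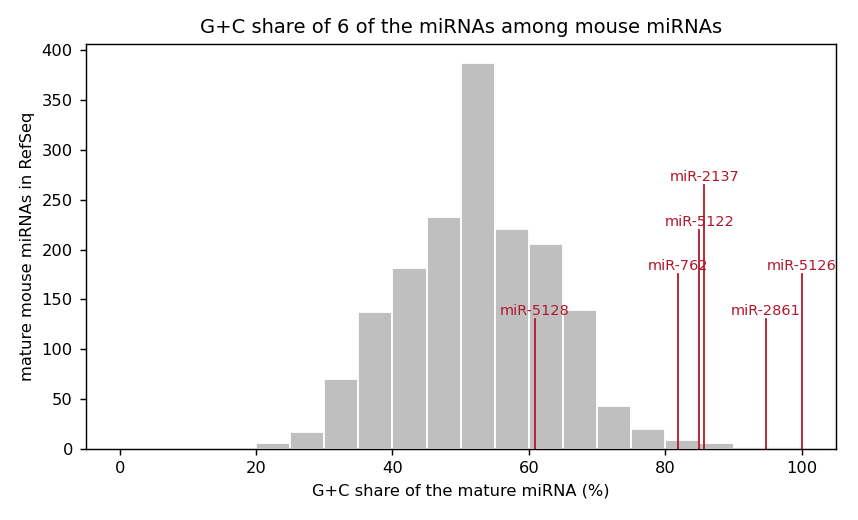
G+C share in percent (x axis) of the 1679 mature mouse miRNA names in RefSeq, counted in bins of 5 percentage points (grey bars), with red lines at 6 of the 7 miRNAs. Lines of 5 lie at 81.8% to 100%, right of nearly all bars, and miR-5128 lies at 60.9%; line heights carry no value.

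No seed was shared among the 6. On the array, seeds could be compared only for the 324 of 1096 mouse features with a sequence matched by name. Among these, miR-3091-3p shares the seed of miR-2861. Both are shown so that the shared seed, in capitals, can be set against the rest of the strand.
miR-2861: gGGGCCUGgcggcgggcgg
miR-3091-3p: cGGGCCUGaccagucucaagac
miR-3091-3p read 29.8 at 6 hr and 26.6 at 0 hr in Tlr3-/- intestine, and 27.8 at 6 hr and 26.2 at 0 hr in Tlr3+/+ intestine, close to the detection thresholds. Its log2 irradiation ratio was 0.01 in Tlr3-/- and 0.03 in Tlr3+/+ intestine, near 0 in both genotypes.

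The hairpins of miR-2861 (chr2:32712807-32712888) and miR-3960 (chr2:32712900-32712972) lie 11 bases apart on the minus strand. They sit 23 and 116 bases before the start of Cdk9, a kinase gene that promotes transcript elongation, on the same strand. The hairpin of miR-5126 (chr1:84695839-84695915, plus strand) lies in Dner, 306 bases after its start, and that of miR-762 (chr7:127708487-127708562, plus strand) lies in Bcl7c, 204 bases after its start, both on the strand opposite to the gene. The hairpins of miR-5128 (chr2:37688201-37688284, minus strand) and miR-2137 (chrX:72992079-72992144, plus strand) lie in Strbp and Zfp185, 15061 and 4740 bases after a listed start, on the strand of the gene. Coordinates are those of GRCm38.p6.

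All 7 miRNAs were detected on 4 of 4 arrays. Detection means a raw intensity above the trimmed mean of the blank spots plus 2 SD. The thresholds were 29.2 and 26.5 on the 6 hr and 0 hr Tlr3-/- arrays, and 26.1 and 25.8 on the 6 hr and 0 hr Tlr3+/+ arrays. Of 1096 mouse features, 573 were detected on all 4 arrays. Markers of the labelled tissue were present. Detected on all 4 arrays were 8 of 8 epithelial miRNAs, 2 of 2 smooth muscle miRNAs and 5 of 5 leukocyte miRNAs, with 2 of 3 red cell, 1 of 2 neuron, 0 of 1 liver and 0 of 2 pancreas miRNAs. After the normalization described below, the epithelial markers had a median log2 irradiation ratio of 0 in Tlr3-/- and -0.33 in Tlr3+/+ intestine. In the same order, smooth muscle markers had -0.54 and -0.57, and leukocyte markers -0.16 and -0.22. Raw intensities did not all follow these medians. The raw sum of the epithelial markers was 19330 at 6 hr and 17710 at 0 hr in Tlr3-/-, and 16230 and 16650 in Tlr3+/+ intestine. That of smooth muscle was 2855 and 3194 in Tlr3-/-, and 2610 and 2623 in Tlr3+/+ intestine. That of leukocytes was 338 and 422, and 299 and 348. The red cell markers differed among themselves. For miR-451 the log2 ratio was -0.94 in Tlr3-/- and 1.11 in Tlr3+/+ intestine. The rest of that list stayed near 0 in both genotypes. In the same order, miR-144 gave 0.004 and -0.04, and the feature shared by miR-486 and miR-3107 gave 0.03 and 0.04. These dim features had raw intensities of 25.2 to 38.5, near the thresholds. The part of the cell type markers in the results on the 7 miRNAs was not tested. In whole tissue, fewer cells of a type and less RNA per cell cannot be told apart. As the array names read, both 0 hr arrays came from 1 slide and each 6 hr array from a slide of its own. Irradiation can therefore not be told apart from slide, nor from time, since no non-treated tissue was taken at 6 hr. Genotype at 6 hr can likewise not be told apart from slide, nor can a difference in irradiation ratio between the genotypes. Tlr3 mRNA is not measured by the array, so the genotypes could not be checked.

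Raw intensities are given first, since they carry no scaling. They are compared between arrays for each probe and not between probes, which differ in how they bind. miR-2861 read 1663 at 6 hr and 653 at 0 hr in Tlr3-/- intestine, and 2369 at 6 hr and 514 at 0 hr in Tlr3+/+ intestine. miR-3960 read 1330.4 at 6 hr and 918 at 0 hr in Tlr3-/- intestine, and 1902 at 6 hr and 662 at 0 hr in Tlr3+/+ intestine. For both, each 6 hr array read above both 0 hr arrays.

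miR-2137 read 1972 at 6 hr and 939.9 at 0 hr in Tlr3-/- intestine, and 2629.8 at 6 hr and 727 at 0 hr in Tlr3+/+ intestine. miR-5126 read 2660.3 at 6 hr and 1377 at 0 hr in Tlr3-/- intestine, and 3469 at 6 hr and 1257 at 0 hr in Tlr3+/+ intestine. The 6 hr arrays again stood above the 0 hr arrays in both genotypes.

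miR-5128 read 238 at 6 hr and 105 at 0 hr in Tlr3-/- intestine, and 239 at 6 hr and 103 at 0 hr in Tlr3+/+ intestine, so the genotypes nearly coincided at each time. miR-5122 read 91.5 at 6 hr and 50.7 at 0 hr in Tlr3-/- intestine, and 107 at 6 hr and 40.5 at 0 hr in Tlr3+/+ intestine. It stood at 1.57 to 4.11 times the detection thresholds, and its 6 hr arrays were above its 0 hr arrays. miR-762, the one with an early number, read 308 at 6 hr and 236 at 0 hr in Tlr3-/- intestine, and 514 at 6 hr and 196 at 0 hr in Tlr3+/+ intestine. Its 6 hr Tlr3-/- value lay nearer to the 0 hr values than to the 6 hr Tlr3+/+ value.

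**Figure D2:**
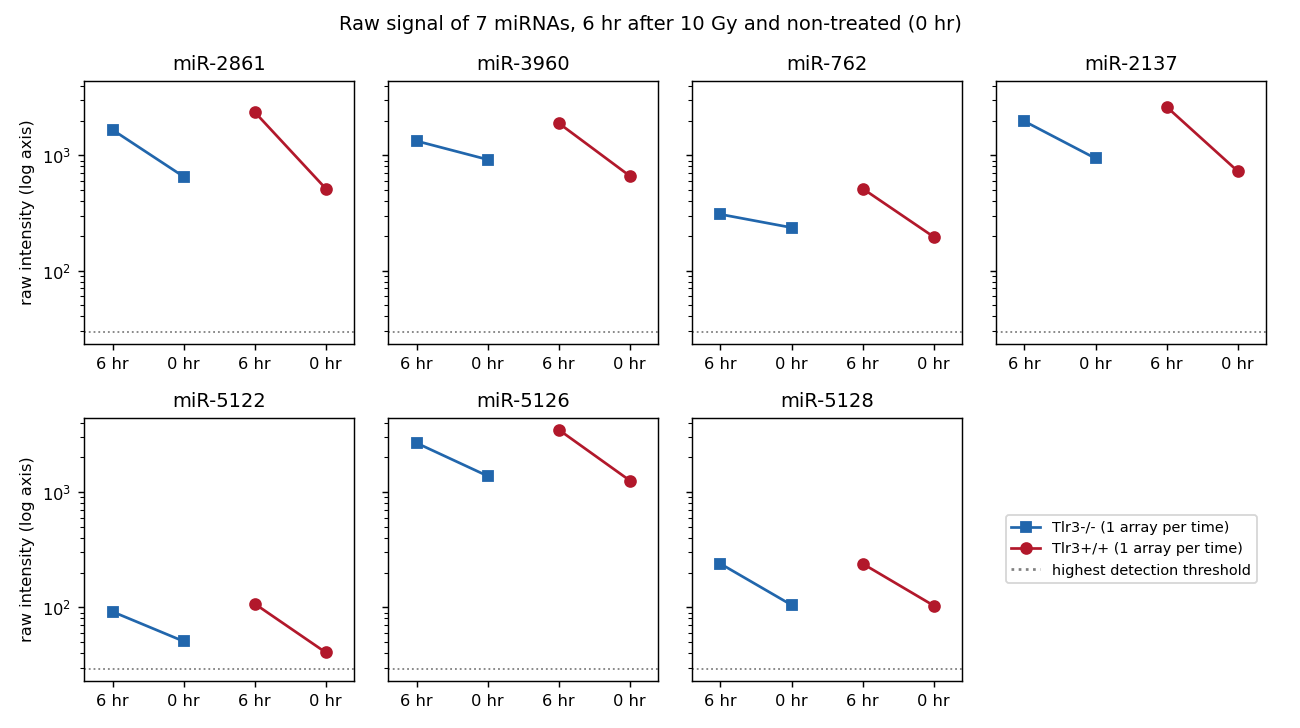
Raw intensity (log axis) of each of the 7 miRNAs, 6 hr left of 0 hr, in Tlr3-/- (blue squares) and Tlr3+/+ intestine (red circles); each point is 1 array, lines join the arrays of a genotype, and the dotted line is the highest detection threshold, 29.2. Every 6 hr point lies above both 0 hr points of the same miRNA, and the gap between the times is small for miR-762 in Tlr3-/- intestine (308 at 6 hr and 236 at 0 hr).

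For ratios, the raw values were background-corrected and quantile-normalized, which puts the arrays on one scale. Repeated spots of 2 spike controls, 8 spots each, had a pooled log2 SD of 0.105 within arrays, which gives a technical SD of 0.148 for the log2 ratio of 2 arrays and 0.209 for a difference of ratios. They hold no variation from mouse to mouse, pool to pool or array to array. They come from raw intensities, so they also leave out steps that quantile normalization makes.

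In Tlr3+/+ intestine, the contrast that chose the miRNAs, the log2 ratios of 6 hr over 0 hr were 1.75 for miR-2861 (3.36-fold), 1.46 for miR-2137 (2.75-fold), 1.22 for miR-5126 (2.33-fold) and 1.20 for miR-762 (2.29-fold). Lower ratios were those of miR-5128 at 1.02 (2.02-fold), miR-3960 at 0.99 (1.98-fold) and miR-5122 at 0.95 (1.94-fold). Of the 7, 5 were at least 2-fold higher (1.76% of the 680 miRNAs detected on both arrays were), 7 were at least 1.5-fold higher (2.94% of the 680) and 7 were above 0 (41.6%). Nothing is read from these counts, since this contrast made the choice.

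Above the lowest of the 7, miR-5122, and among the others stood 4 non-star miRNAs that were not chosen. These were miR-3473 (1.20), miR-451 (1.11), miR-195 (0.99) and miR-3473b (0.96). Below it came miR-711 (0.71), miR-5130 (0.68) and miR-1965 (0.57). The 7 are thus not every non-star miRNA at this level, and the values below belong to the chosen ones.

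The choice was stated by the Tlr3+/+ ratio, but it was made with earlier results of these data known. The Tlr3-/- values are therefore a description and no independent check. In Tlr3-/- intestine, 7 of the 7 miRNAs had a ratio of 6 hr over 0 hr above 0, against 46.2% of the 625 miRNAs detected on both arrays. The median log2 ratio of the 7 was 0.66, against a median of -0.001 over the 625. At least 1.5-fold higher were 5 of the 7, against 1.44% of the 625, and at least 2-fold higher was 1, against 0.48%. The processing understates changes of dim miRNAs, so brighter ones were also counted. Of the 96 other miRNAs that read over 3 times the detection threshold, 3 were at least 1.5-fold higher and 28 above 0. Their median log2 ratio was -0.08. Of the 7, miR-5122 did not reach this brightness. All 7 Tlr3-/- intensities at 6 hr, after normalization, were above both 0 hr arrays, as were 33.7% of the 573 miRNAs detected on all 4 arrays. The 4 unchosen non-star miRNAs at the same Tlr3+/+ level had Tlr3-/- log2 ratios of 1.20 for miR-3473b, 0.95 for miR-3473, -0.14 for miR-195 and -0.94 for miR-451, so that 9 of 11 at that level were above 0. The slides differ between the times here too, and their part was not tested.

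Within the 7, the Tlr3-/- ratios spread widely. miR-2861 had the highest, 1.22 on the log2 scale (2.32-fold), followed by miR-5128 at 0.91 (1.88-fold) and miR-5126 at 0.75 (1.69-fold). miR-2137 stood at 0.66 (1.58-fold) and miR-5122 at 0.62 (1.54-fold). miR-3960 reached 0.36 (1.28-fold) and miR-762 0.27 (1.21-fold). More than 2 technical SD above 0 lay 6 of the 7, against 3.04% of the 625. miR-762 did not, though it did in 3 of the 5 other scalings described next.

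**Figure D3:**
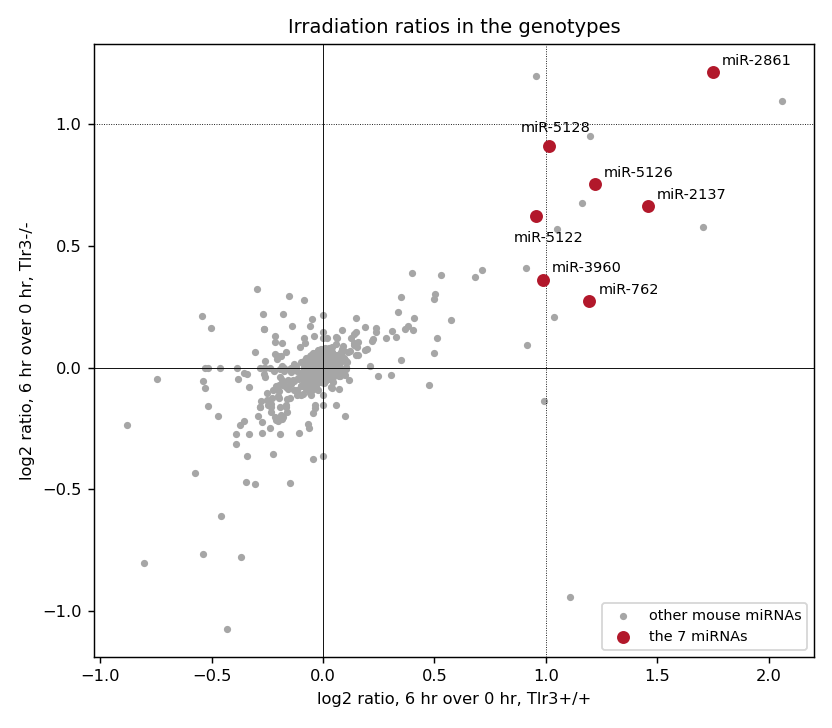
Log2 ratio of 6 hr over 0 hr in Tlr3+/+ (x axis) and Tlr3-/- intestine (y axis) for the 573 mouse miRNAs detected on all 4 arrays, with the 7 in red, others in grey, and dotted lines at 2-fold. The 7 lie at 0.95 to 1.75 on the x axis, where they were chosen, and at 0.27 to 1.22 on the y axis, while most grey points gather around 0.

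Other ways of scaling the arrays changed the sizes and not the direction. Scaling to the median or the 75th percentile of detected probes, cyclic loess, spike controls and the authors' own normalized values gave Tlr3-/- log2 ratios of 1.17 to 1.45 for miR-2861, 0.37 to 0.66 for miR-3960, 0.25 to 0.48 for miR-762 and 0.89 to 1.18 for miR-2137. miR-5126 ranged over 0.77 to 1.07, miR-5128 over 0.96 to 1.25 and miR-5122 over 0.56 to 1.16. In Tlr3+/+ intestine, miR-3960 was higher under each of these 5 scalings, at 1.30 to 1.45, than under quantile normalization. miR-5122, which lay near the thresholds, read 2.13 in the authors' values, which carry no offset, against 0.93 to 1.04 in the other 4.

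**Figure D4:**
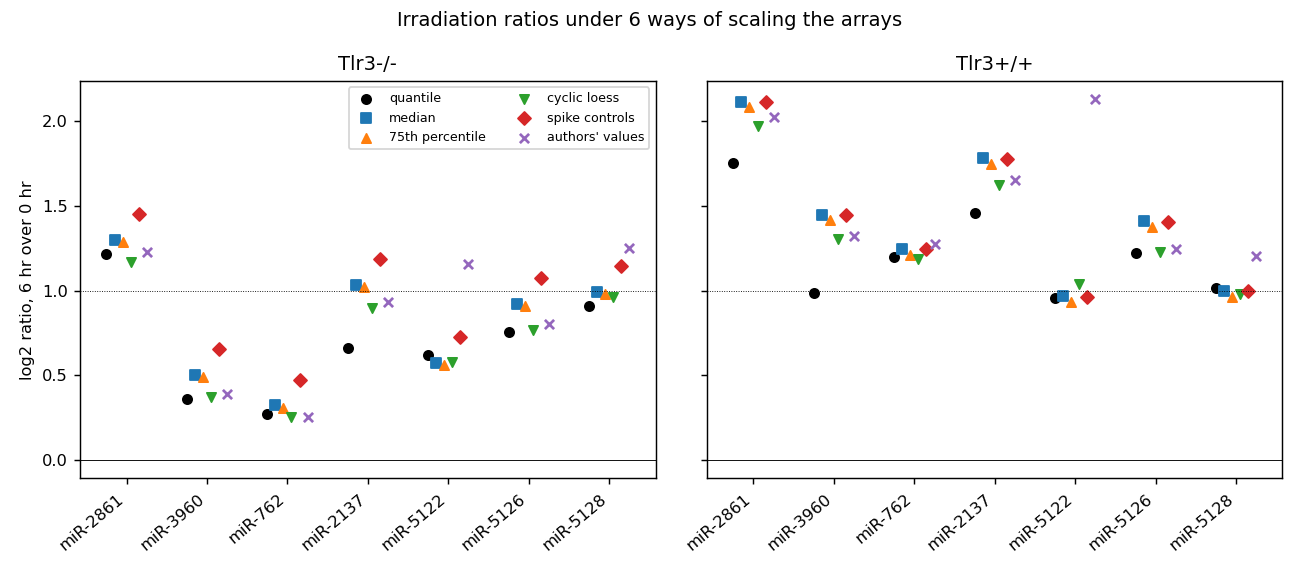
Log2 ratio of 6 hr over 0 hr of the 7 miRNAs in Tlr3-/- (left) and Tlr3+/+ intestine (right) under 6 scalings of the arrays, one marker for each. All markers lie above 0; the largest spread is that of miR-5122, whose authors' values stand at 1.16 and 2.13 against 0.62 and 0.95 with quantile normalization.

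At 6 hr, the normalized signal in Tlr3-/- over Tlr3+/+ intestine was below 0 on the log2 scale for 7 of the 7, against 43.1% of the 645 miRNAs detected on both arrays. The median was -0.33, against 0.008 over the 645. miR-762 had the lowest value, -0.83, followed by miR-5126 at -0.46. miR-2137, miR-3960 and miR-2861 stood close together at -0.34, -0.33 and -0.32, and miR-5122 and miR-5128 at -0.18 and -0.13. Below 0 by over 2 technical SD were 5 of the 7, against 3.26% of the 645. miR-5128 lay between -0.15 and 0.01 in the other scalings, so its sign was not settled. Because the Tlr3+/+ 6 hr array helped to choose the miRNAs, a lower value in Tlr3-/- is the direction that the choice favours, and nothing rests on it. The slides also differ between the 6 hr arrays, and their part was not tested.

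At 0 hr, Tlr3-/- over Tlr3+/+ intestine gave 0.46 for miR-2137, 0.29 for miR-3960, 0.22 for miR-2861, 0.15 for miR-5122 and 0.09 for miR-762, with 0 for miR-5126 and -0.02 for miR-5128. With quantile normalization miR-2137 alone exceeded 2 technical SD (0.296). Its value lay between 0.10 and 0.36 in the other 5 scalings, past that limit in 2 of them, while miR-3960 lay between 0.20 and 0.46 and miR-2861 between 0.07 and 0.34, also past it in 2 each. The sign of miR-762, miR-5122, miR-5126 and miR-5128 differed between scalings. The 0 hr Tlr3+/+ array also took part in the choice, where a low value favoured a miRNA.

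When the Tlr3+/+ irradiation ratio was subtracted from the Tlr3-/- one, the difference was -0.92 for miR-762, -0.79 for miR-2137, -0.62 for miR-3960, -0.53 for miR-2861, -0.46 for miR-5126, -0.33 for miR-5122 and -0.11 for miR-5128. It has no test, and the choice favours a smaller ratio in Tlr3-/- intestine here as well. For miR-5128 it lay between -0.02 and 0.15 in the other scalings, the smallest difference of the 7.

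The order of the arrays was also compared. For 7 of the 7, the irradiated Tlr3+/+ array had the highest raw intensity, followed by irradiated Tlr3-/-, non-treated Tlr3-/- and non-treated Tlr3+/+ intestine, an order held by 10.5% of the 573. The choice used both Tlr3+/+ arrays and so favoured these as the highest and the lowest, and nothing is read from the order. After normalization 5 kept that order, while miR-5126 was tied at 0 hr and miR-5128 had the 0 hr arrays turned round. The gap between the lower 6 hr array and the higher 0 hr array was 1.22 for miR-2861, 0.88 for miR-5128, 0.75 for miR-5126, 0.66 for miR-2137, 0.62 for miR-5122, 0.36 for miR-3960 and 0.27 for miR-762. That of miR-762 was within 2 technical SD. For miR-5122 and miR-5128 neither genotype step at 6 hr nor at 0 hr exceeded 2 technical SD, for miR-2861, miR-3960, miR-762 and miR-5126 the step at 0 hr did not, and for miR-2137 each step did. The 0 hr step of miR-2137 (0.46) lay outside the range of the other scalings (0.10 to 0.36) and exceeded the limit in 2 of 5.

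miR-2861 and miR-3960, encoded next to each other, were compared directly. Hairpins that lie this close are often cut from 1 primary transcript. The irradiation ratio of miR-2861 exceeded that of miR-3960 by 0.85 on the log2 scale in Tlr3-/- and by 0.76 in Tlr3+/+ intestine, more than 2 technical SD of a difference of ratios. The 5 other scalings gave 0.79 to 0.84 in Tlr3-/- and 0.66 to 0.70 in Tlr3+/+ intestine. Between genotypes the pair had nearly equal values. The log2 ratio of Tlr3-/- over Tlr3+/+ was -0.32 for miR-2861 and -0.33 for miR-3960 at 6 hr, and 0.22 and 0.29 at 0 hr. The pair thus differed in the size of its irradiation ratio and not by more than 2 technical SD in its genotype ratios.

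**Figure D5:**
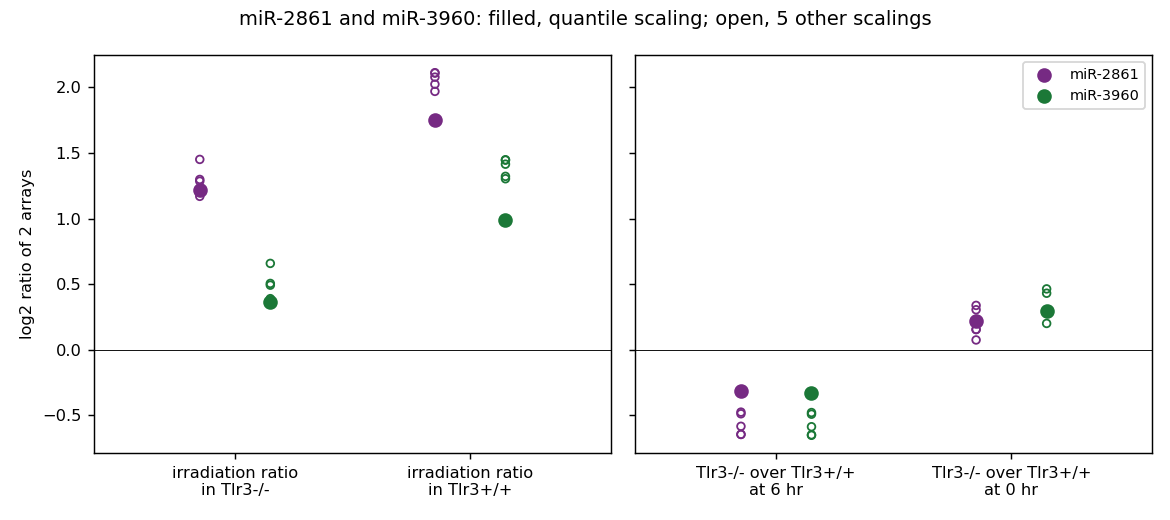
Log2 ratios of miR-2861 (purple) and miR-3960 (green): irradiation, 6 hr over 0 hr, in Tlr3-/- and Tlr3+/+ intestine (left), and Tlr3-/- over Tlr3+/+ at 6 hr and 0 hr (right). Filled points are quantile-normalized and open points the 5 other scalings. miR-2861 stands above miR-3960 in both irradiation ratios (1.22 and 0.36 in Tlr3-/-, 1.75 and 0.99 in Tlr3+/+), and the pair overlaps in the genotype ratios.

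Among the 21 pairs of the 7, the distance between the centred 4-array profiles of miR-2861 and miR-3960 was 0.81, the second largest. The largest was that of miR-2861 and miR-762 (0.83) and the smallest that of miR-3960 and miR-5122 (0.19). Neighbours on the chromosome were therefore not the nearest in profile. The distance is a Euclidean one over 4 log2 values, described with no test. It grows with the size of the changes, and miR-2861 and miR-3960 had the same order of the arrays.

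Profiles of 564 features that name a single miRNA, the 7 included, were compared over the 4 arrays. The others nearest to the mean profile of the 7 were miR-3102* (distance 0.044), miR-3090* (0.15), miR-3473 (0.20), miR-328* (0.30) and miR-326* (0.37). miR-3102* had log2 irradiation ratios of 0.68 in Tlr3-/- and 1.16 in Tlr3+/+ intestine, and miR-326* had 0.58 and 1.71. All of the 5 nearest except miR-3473 were star strands.

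Most other late-numbered miRNAs stayed near 0. The array held 153 late-numbered non-star miRNAs, 6 of them among the 7. The other 85 that were detected in Tlr3-/- intestine had a median log2 ratio of 0.007, and 2 of them were at least 1.5-fold higher. The other 92 that were detected in Tlr3+/+ intestine had a median of 0.003, and 3 were at least 1.5-fold higher, namely miR-3473, miR-3473b and miR-5130. Among features that read over 3 times the detection threshold, the other late-numbered ones had a median of -0.14 in Tlr3-/- (n = 9) and 0 in Tlr3+/+ intestine (n = 10).

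miR-5128 resembled one of those in sequence. Of its strand, 16 of 17 aligned bases are also in miR-3473b, shown in capitals below.
miR-5128: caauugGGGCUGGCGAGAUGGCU
miR-3473b: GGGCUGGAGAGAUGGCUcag
miR-3473b read 404 at 6 hr and 145 at 0 hr in Tlr3-/- intestine, and 385 at 6 hr and 153 at 0 hr in Tlr3+/+ intestine. Its log2 irradiation ratio was 1.20 in Tlr3-/- and 0.96 in Tlr3+/+ intestine, so, like miR-5128 (0.91 and 1.02), it was high in both genotypes. miR-1931, with 14 of 16 aligned bases identical to miR-5128, had log2 ratios of 0.12 in Tlr3-/- and -0.001 in Tlr3+/+ intestine, near 0 in both. Its raw intensities were 37.3 at 6 hr and 29.5 at 0 hr in Tlr3-/- intestine, and 33.9 at 6 hr and 32.2 at 0 hr in Tlr3+/+ intestine. miR-5104, with 12 of 15, was detected on 1 array. Both were named after their values were seen. Whether the probes of such alike strands bind each other's RNA was not tested.

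Other miRNAs rich in G and C were also looked at. Features named with an asterisk match no name in the RefSeq table and could not enter. Of 150 others with a sequence matched by name and a signal on all 4 arrays, 5 with the highest G+C shares are given. These were miR-5131 (87.0%), miR-5130 (83.3%), miR-760-5p (78.3%), miR-705 (75%) and miR-1895 (72.7%). The last was tied with miR-323-5p, miR-3093-5p and miR-770-3p. The log2 irradiation ratios of the tied miRNAs not listed lay between -0.03 and 0.02 in Tlr3-/- and between 0.03 and 0.09 in Tlr3+/+ intestine. miR-5130 had log2 irradiation ratios of 0.37 in Tlr3-/- and 0.68 in Tlr3+/+ intestine, and miR-5131 had 0.20 and 0.41. miR-705 had 0.08 and 0.20, miR-760-5p 0.01 and 0.07, and miR-1895 0 and -0.01. The 2 with a share above 80% had the higher ratios of the 5 in both genotypes. That order covers these 5 only, since star features of high G+C share may be missing from the list. Raw intensities of the 5 lay between 27.1 and 91.2, against detection thresholds of 25.8 to 29.2. The highest was that of miR-5130 in irradiated Tlr3+/+ intestine, so the 5 were not equally dim. Since the 7 were chosen as high in Tlr3+/+ intestine, lower ratios of others there are built into the choice.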

How the data were processed

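RNA of whole small intestine was hybridised to 1-colour arrays after miRNeasy extraction and Hy5 labelling, per the labels' protocols. The authors deposited raw intensity for 3136 spots per array, of which 1135 are miRNA probes, 1096 of them mouse, and 1818 are blank, with a background-subtracted and a normalized intensity, per the file headers. The scanner is not given in the sources used here. Values here started from raw intensity. Blank spots served as negative controls for normexp correction with an offset of 50 (R 4.3.3 with limma 3.58.1); the miRNA probes were then quantile-normalized and log2-transformed. The offset understates changes of dim miRNAs, and quantile ranks can give a ratio of exactly 0. Normalized ratios can also lie away from 0 where raw values nearly agree. For miR-192 in Tlr3+/+ intestine, raw values were 2233 at 6 hr and 2224 at 0 hr, and the log2 ratio was -0.57. Ratios of array pairs were taken for miRNAs detected on both. The scripts were checked on simulated arrays with known changes. No test was run, since each group had 1 array and the Tlr3+/+ contrast chose the miRNAs. Alternatives were 5 other scalings, size limits of 1.5-fold and 3-fold, a smaller offset (16), the blank mean subtracted, uncorrected background, and detection filters that were stricter (3 times the threshold) or absent. The miRNAs and lists were chosen with earlier results of these data known. Named beside the 7 were the 5 nearest in profile, those at the edge of the choice, 5 of the highest G+C share, seed sharers and cell type markers. Sequences and positions are from RefSeq (GRCm38.p6). The position of miR-5122 is not reported here.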

Additional observations from a re-analysis of the deposited data

How the results depend on the processing

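The 138 single-miRNA irradiation ratios computed under the alternatives were above 0 in 138 cases, and 42 moved by more than the technical SD of a ratio. Of 114 summary values, 90 stayed within it or, for counts, within 1.5 times. In Tlr3-/- intestine, the count at least 2-fold higher was 2 with median scaling, 2 with the 75th percentile, 4 with spike controls, 3 in the authors' values, 2 with an offset of 16, 2 without background correction, 5 at a 1.5-fold limit and 0 at a 3-fold limit. Its median log2 ratio was 0.92 with median scaling, 0.91 with the 75th percentile, 1.07 with spike controls and 0.93 in the authors' values. Spike scaling put the median of all miRNAs at 0.15 in this comparison and at -0.25 for Tlr3-/- over Tlr3+/+ at 0 hr, and the authors' values put it at -0.15 for Tlr3+/+ irradiation. In Tlr3+/+ intestine, 1 miRNA passed a 3-fold limit, and the median was 1.41 with median scaling, 1.37 with the 75th percentile and 1.40 with spike controls. The median of Tlr3-/- over Tlr3+/+ at 6 hr was -0.55 with cyclic loess, -0.49 with spike controls and -0.55 in the authors' values. At 0 hr it turned to -0.019 with spike controls, against 0.15 with quantile normalization. The median difference of ratios was -0.75 with median scaling and -0.80 in the authors' values. With a filter at 3 times the threshold, which removed miR-5122, the late-numbered list had a median of 0.25 in Tlr3-/- and 0.40 in Tlr3+/+ intestine. That list holds chosen miRNAs. Without them its median was -0.14 in Tlr3-/- (n = 9) and 0 in Tlr3+/+ intestine (n = 10). For the scalings, the cause was not tested. The median over G+C-rich probes was not run, since 324 of 1096 mouse features (29.6%) had a sequence matched by name, under the 80% needed. No paired analysis was possible because each group had 1 array. Signals near the threshold limit miR-5122.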
